A study of Homo sapiens with 4 samples.

Results

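The comparison is between 2 arrays of stimulated Jurkat cells (a long-established line from a human T cell leukaemia): cells carrying a hairpin against IKKε (the shIKKE line) over cells carrying a control construct (the control line). Both lines had received 10 ng/ml PMA and 0.5 uM ionomycin for 3 h. The series holds 4 arrays, 1 per group, and the other 2 are the same lines with solvent alone. The series text calls the control construct an shRNA and the sample titles call it a vector. The labels do not say whether a line is 1 clone or a pool, or whether cultures were grown separately. All features with exactly 1 gene symbol in the platform annotation were taken, 41091 of the 54675 on the array. Of these, 26218 probe sets of 13717 genes reached a signal of 56.4, the median of all signals, on at least 1 of the 4 arrays and are described here. Each gene is given by its brightest probe set. Signals are MAS5 intensities on a linear scale, and differences are log2(signal + 14.1) of the shIKKE line minus that of the control line, a scale that understates the difference of dim genes. With 1 array a side no difference has an error or a p-value, and a gene is called higher or lower from a 2-fold difference (log2 of 1) on.

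IKKε, encoded by IKBKE, is a serine kinase related to TBK1 that phosphorylates factors of the interferon and NF-κB pathways, and in T cells it has also been described as a kinase of NFATc1. PMA stands in for diacylglycerol and switches on protein kinase C and Ras, which lead to NF-κB and AP-1. Ionomycin carries calcium across the membrane, so that the phosphatase calcineurin strips phosphates from NFAT and lets it enter the nucleus. NFAT, AP-1 and NF-κB then act together at the promoters of cytokine genes. The comparison asks how the stimulated state differs when IKKε is knocked down.

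The brightest IKBKE probe set read 520.2 in the stimulated control line and 248 in the stimulated shIKKE line, a log2 difference of -1.03. The second IKBKE probe set read 311 and 279.8, a log2 difference of -0.15, so the sets did not give the same size. With solvent the same sets differed by -0.87 and 0.38. The scaled arrays had equal trimmed means of 500.1, while the median signal was 59.8 in the stimulated control line and 69.1 in the stimulated shIKKE line. The ACTB control sets gave a 5′ over 3′ ratio of 0.401 and 0.266 on these arrays, and those of GAPDH 1.06 and 1.17. Counts under other scalings of the arrays are given with the counts over all genes. Whether the difference in the 5′ over 3′ ratio bears on any result was not tested. T cell markers were high in both lines: CD3D read 28570 and 26370, LCK 19919 and 19172, and TAL1, a leukaemia factor active in this line, 6120 and 5419. The summed signal of the 13 measured T cell markers was 113077 and 104930, against 240 and 374 for 12 myeloid markers, 1445 and 1178 for 10 B cell markers, 338 and 425 for 9 natural killer cell markers and 412 and 547 for 9 erythroid and epithelial markers. No other-lineage marker was above 408.3 on these arrays. Since whole cultures were measured, fewer cells expressing a gene and less RNA per cell cannot be told apart.

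Secreted ligands and genes known as NFAT targets were among the genes that stood higher in the stimulated shIKKE line. The start regions of 4 of them are shown. Of these, IL2, TNF and FASLG are on the list of NFAT targets used here. CXCL8 is not on it and is on the list of NF-κB targets. Each line gives the 250 bases before the RefSeq start, 5′ to 3′ on the gene's strand, in build GRCh38.p14: IL2 at chr4:122456726-122456975 (minus strand), TNF at chr6:31575315-31575564, FASLG at chr1:172658853-172659102 and CXCL8 at chr4:73740319-73740568 (plus strand). Capitals mark every match, on either strand, to the NFAT core GGAAA or the AP-1 motif TGANTCA, where N is any base.
IL2: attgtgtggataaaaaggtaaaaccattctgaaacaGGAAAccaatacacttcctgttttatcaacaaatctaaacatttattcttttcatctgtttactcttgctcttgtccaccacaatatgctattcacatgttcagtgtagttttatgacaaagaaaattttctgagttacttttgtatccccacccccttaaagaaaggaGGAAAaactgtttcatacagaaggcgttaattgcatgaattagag
TNF: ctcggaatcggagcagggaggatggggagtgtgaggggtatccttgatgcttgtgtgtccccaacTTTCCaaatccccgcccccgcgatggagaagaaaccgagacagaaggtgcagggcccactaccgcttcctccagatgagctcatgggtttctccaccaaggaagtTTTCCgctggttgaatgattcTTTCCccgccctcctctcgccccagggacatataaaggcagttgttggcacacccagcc
FASLG: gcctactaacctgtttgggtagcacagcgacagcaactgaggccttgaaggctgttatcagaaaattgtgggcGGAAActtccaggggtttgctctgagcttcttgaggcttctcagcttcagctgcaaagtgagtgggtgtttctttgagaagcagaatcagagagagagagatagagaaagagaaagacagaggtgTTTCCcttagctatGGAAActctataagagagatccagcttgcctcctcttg
CXCL8: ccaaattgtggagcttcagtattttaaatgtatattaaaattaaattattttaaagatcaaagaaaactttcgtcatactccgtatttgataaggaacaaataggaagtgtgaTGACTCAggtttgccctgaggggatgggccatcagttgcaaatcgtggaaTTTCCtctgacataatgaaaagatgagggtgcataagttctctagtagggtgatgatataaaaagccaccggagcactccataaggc

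These windows hold 2 NFAT core matches in IL2, 3 in TNF, 3 in FASLG and 1 in CXCL8, and 1 AP-1 match, in CXCL8. The core is short and common: 56.0% of the 27305 windows in the table hold it, and 6.6% hold the AP-1 motif. Of the 22 measured NFAT targets 15 had a window, and 10 of these held the core and 2 the AP-1 motif. A match is a description of the letters and not of binding. 

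Chemokine genes had the highest median difference of all lists examined, as the plot of induced signals shows for 4 of them. CXCL8, the neutrophil attractant interleukin 8, had solvent signals of 1.83 in control cells and 39.0 in shIKKE cells, and stimulated signals of 229.5 and 1764 (all pairs are given in this order), a log2 difference of 2.87 in the stimulated state. A second, dimmer CXCL8 probe set gave 3.08. CCL4, the attractant MIP-1β made by activated T cells (its probe sets may also read near-identical copies), read 569.6 and 2603 when stimulated (log2 2.16) and below 5 in both solvent samples. XCL1, lymphotactin, read 379 and 1204 (log2 1.63, and 0.94 by a dimmer set), and its probe sets may also read the near-identical XCL2. CCL1, a ligand of CCR8, read 218 and 773 (log2 1.76), but was already higher with solvent (12 and 96.0). CXCL3 read 134.5 and 384 (log2 1.42). Of 6 measured chemokine genes (18 listed), 5 were at least 2-fold higher and none lower, with a median of 1.70, while 5.99% of all 13717 genes were higher and 2.37% lower by that rule, around a median of 0.03. The exception was CCL5, or RANTES, which read 79.0 and 53.9 (log2 -0.45).

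**Figure D1:**
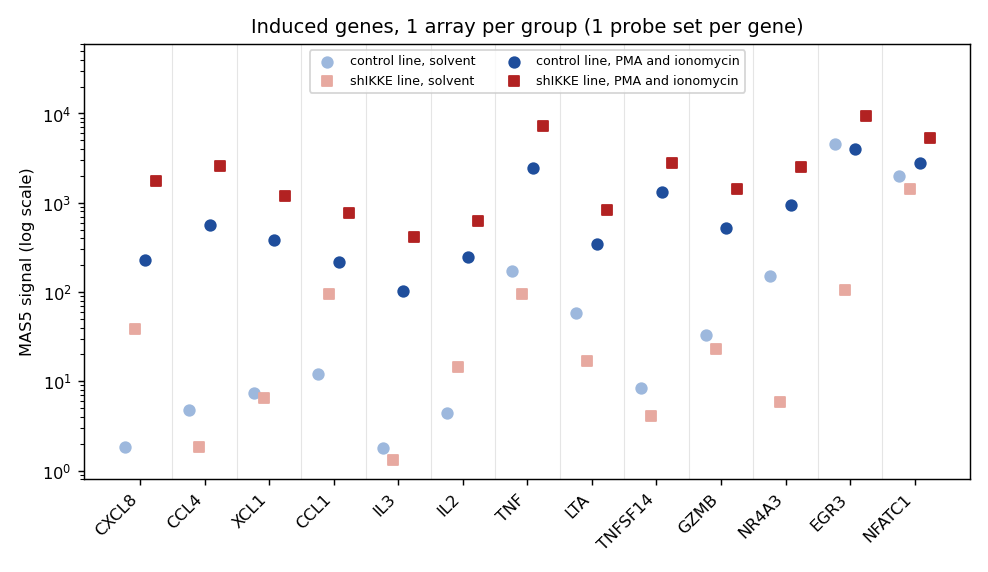
MAS5 signal (log scale) of 13 stimulated or early response genes on the 4 arrays, 1 point per array. Dark points are the stimulated arrays. For each of the 13 genes the shIKKE line (dark square) lies above the control line (dark circle), for example 2603 against 569.6 for CCL4. With solvent (pale points) the order is the other way round for 10 of the 13, all but CXCL8, CCL1 and IL2, and many of these signals are dim, such as 4.77 and 1.82 for CCL4.

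Ligands of the TNF family followed the same direction. TNF gave signals of 173 and 95 with solvent, and of 2442 and 7245 after stimulation, a log2 difference of 1.56 in the stimulated state. FASLG, the death ligand of cytotoxic T cells, read 39.5 and 179 (log2 1.85, and 2.57 by a dimmer set), and it passed the filter only through the stimulated shIKKE array. CD70, which costimulates through CD27, read 118 and 470.4 (log2 1.87), and TNFSF9, the ligand of 4-1BB, read 149.9 and 495 (log2 1.63). These 2 genes read about alike in both lines with solvent, at 170.4 and 179 for CD70 and 297 and 317 for TNFSF9. LTA, lymphotoxin alpha, read 344 and 822 (log2 1.22) and TNFSF14, or LIGHT, 1303 and 2807 (log2 1.10). Of 11 measured ligands (16 listed), 6 were higher and 1 lower, where 5.99% and 2.37% of all genes were, with a median of 1.10. TNFSF10, the death ligand TRAIL, was the lower one, at 1624 and 775 (log2 -1.05). LTB, which pairs with lymphotoxin alpha, read 10988 and 11128 (log2 0.02).

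Among interleukins and growth factors the higher genes were few but included the classical T cell products. IL3, which drives myeloid progenitors, read under 2 in both lines with solvent and 101.6 and 409.9 with stimulation (log2 1.87). IL2, the autocrine growth factor of T cells, read 4.44 and 14.5 with solvent and 245 and 629 when stimulated (log2 1.31), and LIF read 71.5 and 175 (log2 1.14). IL23A, the p19 chain of interleukin 23, read 338 and 683 (log2 0.99). IFNG did not share this, at 189.8 and 159 (log2 -0.24), and neither did IL4 (118 and 83.9, log2 -0.43) or IL13 (98.2 and 70.9, log2 -0.40). Of 19 measured members (30 listed), 3 were higher and none lower, with a median of 0.16. Over all genes 5.99% were higher and 2.37% lower. The 3 ligand lists together had 36 measured genes, of which 14 were higher and 1 lower, and 10 of the 36 are also on the list of NFAT targets.

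Of 22 measured NFAT targets (31 listed), 10 were at least 2-fold higher, none was lower and 12 lay within 2-fold; the median was 0.97. All 22 also stand on other lists used here. This is 10 of 22 beside 5.99% of all genes, and 2 of the 22, FASLG and NR4A2, passed the filter only through the stimulated shIKKE array. The genes were put in 5 groups of equal size by their mean level on the stimulated arrays, and those of the upper 3 groups are called the brighter genes. Among these, 8 of 14 NFAT targets were higher, where 0.559% of 8230 brighter genes were. The 3 ligand lists above held 16 brighter genes, of which 8 were higher and 1 lower. CXCL3, FASLG, CD70, TNFSF9, IL3 and LIF were dimmer and lay outside the brighter genes. Besides the ligands above, GZMB, the granule protease granzyme B, read 33.3 and 22.8 with solvent and 527 and 1432 when stimulated (log2 1.42). The nuclear receptor gene NR4A3 read 945.5 and 2493 (log2 1.39, and 1.34 and 1.12 by 2 dimmer sets) after 151 and 5.82 with solvent. EGR3, a zinc finger factor induced through NFAT, read 4009 and 9316 (log2 1.21) after 4526 and 104 with solvent. Without stimulus the shIKKE line was thus the one with the smaller signal for these genes. NFATC1, whose short isoform NFAT itself induces, read 1989 and 1425 with solvent and 2776 and 5371 when stimulated (log2 0.95), with 1.07, 0.55 and 0.12 by its 3 other probe sets. RCAN1, a calcineurin inhibitor with an NFAT-driven isoform, read 1575 and 1663 (log2 0.08), MYC 2839 and 2702 (log2 -0.07) and IL2RA, the alpha chain of the interleukin 2 receptor, 95.6 and 109.3 (log2 0.17).

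Transcripts of the NFAT proteins and calcineurin subunits were mostly within 2-fold. Of 19 measured genes (21 listed), 1 was higher and none lower, and the median was -0.11. The higher one was NFATC4, a dim gene at 20.9 and 106 (log2 1.78, but 0.30 by another dim set), and NFATC1 (above) came next at 0.95. NFATC2, the main NFAT of resting T cells, read 1144 and 1465 (log2 0.35) and NFATC3 2215 and 1702 (log2 -0.38). The calcineurin catalytic genes read 1882 and 2231 for PPP3CA (log2 0.24), 2833 and 2658 for PPP3CB (log2 -0.09) and 459 and 666 for PPP3CC (log2 0.52). GSK3B, a kinase that exports NFAT from the nucleus, read 3969 and 3083 (log2 -0.36).

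Some NF-κB targets were higher and others were about level. Of 23 measured (28 listed), 5 were higher and none lower, where 5.99% and 2.37% of all genes were. The median was 0.23, with 18 values above 0 and 5 below. Among the brighter genes 4 of 17 were higher, where 0.559% of all brighter genes were. The higher ones were CXCL8 and LTA (above), the survival gene BCL2A1 (455.5 and 1120, log2 1.27), and the nuclear IκB genes NFKBID (1982 and 4317, log2 1.12) and NFKBIZ (57.1 and 138, log2 1.09). NFKBIA, the feedback inhibitor IκBα, read 3854 and 7051 (log2 0.87, and 0.29 by a dim set). Other strong targets were about level: IER3 read 23106 and 22167 (log2 -0.06), REL 5496 and 5411 (log2 -0.02), NFKB1 3586 and 3902 (log2 0.12) and CD83 13048 and 15304 (log2 0.23). RELB read 782 and 558 (log2 -0.48) and TNFAIP3, the deubiquitinase A20, 4514 and 3444 (log2 -0.39).

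The kinases and partners of IKKε had 2 lower and no higher members among 19 (19 listed), with a median of -0.16. These were IKBKE itself and TBKBP1, an adaptor of TBK1, which read 244 in the stimulated control line, 50.1 in the stimulated shIKKE line and under 25 in both solvent samples (log2 -2.01). TBKBP1 passed the filter only through the stimulated control array. Over all genes 2.37% were lower and 5.99% higher. TBK1 read 1932 and 2032 (log2 0.07), IKBKB 2058 and 1504 (log2 -0.45), CHUK 2333 and 2539 (log2 0.12) and TRAF3, which restrains the noncanonical pathway, 4368 and 2971 (log2 -0.55, and 0.22 by a dimmer set).

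Most immediate early transcription factors were within 2-fold once both lines were stimulated. Of 30 measured (31 listed), 3 were higher and none lower, and the median was 0.08. By that rule 5.99% of all genes were higher and 2.37% lower. The 3 were among 25 brighter members, where 0.559% of brighter genes were higher and 0.644% lower. With solvent, 16 of the same 30 were lower in the shIKKE line by the 2-fold rule (median -1.06), where 6.68% of all genes were lower and 4.34% higher. The solvent and stimulated comparisons share no array. EGR1 read 23198 and 18503 (log2 -0.33) with stimulation after 9953 and 1035 with solvent, and FOS read 386 and 345 (log2 -0.15). The AP-1 gene JUN read 5059 and 1404 with solvent and 2721 and 5615 when stimulated (log2 1.04), with 1.02, 0.86 and 1.40 by its other probe sets. ATF3, a stress-induced factor, read 548 and 1110 (log2 1.0, just under 2-fold before rounding, and -0.09 by a dimmer set), and NR4A1 read 668 and 1341 (log2 0.99). KLF2, a quiescence factor, was the lowest member at 1890 and 1027 (log2 -0.87), after 913 and 1392 with solvent.

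Feedback regulators of MAP kinases had 3 higher and no lower members of 23 (24 listed), with a median of 0.10. Over all genes 5.99% were higher and 2.37% lower. Of the 16 brighter regulators 1 was higher and none lower, with a median of 0.01. SPRY1, an inhibitor of receptor to Ras signalling, read 246 and 861 (log2 1.75, and 0.36 by a second set), DUSP8 186 and 402 (log2 1.06) and RGS16 78.4 and 178 (log2 1.05). DUSP5, a nuclear phosphatase of ERK, was the lowest at 14032 and 7043 (log2 -0.99). DUSP2 (19612 and 16419, log2 -0.26), SPRY4 (764 and 735, log2 -0.05) and DUSP6 (292.5 and 294, log2 0.01) were close to level in the stimulated state.

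Surface molecules of activated cells showed no common direction. CD69, the first activation antigen, read 14797 and 20144 (log2 0.44) and CRTAM 2932 and 2965 (log2 0.02). ICOS, a CD28-like costimulator, read 83.2 and 356 (log2 1.93), and NT5E, the ectoenzyme CD73 that makes adenosine, 164 and 757 (log2 2.12), with 1.63, 1.30 and 0.98 by 3 dimmer sets. ENTPD1, or CD39, which acts before CD73, was dim at 44.5 and 110.0 (log2 1.08) and passed the filter only through the stimulated shIKKE array. CD38 (61.9 and 15.2, log2 -1.38) and CD96 (218 and 99.6, log2 -1.03) were lower. In all 3 of 22 measured members (31 listed) were higher and 2 lower, with a median of 0.12. By that rule 5.99% of all genes were higher and 2.37% lower. Among the 8 brighter members 1 was higher and none lower. Of 28 measured receptor and proximal signalling genes (32 listed), CD2, an adhesion receptor that costimulates, was the 1 past 2-fold (760.4 and 353, log2 -1.08), and the adaptor gene LAT read 10071 and 6522 (log2 -0.63). Among 24 brakes on the receptor (26 listed), SLA was higher (log2 1.04). DGKZ, the diacylglycerol kinase zeta gene, was at -0.97 on the log2 scale, but at 1.14 by a dim set. Of 16 TNF receptors (20 listed) 3 were higher, where 5.99% of all genes were, and none of the 8 brighter ones was. All 3 were dim: TNFRSF25 (log2 1.23), TNFRSF14 (log2 1.14) and TNFRSF10A (log2 1.07). TNFRSF25 passed the filter only through the stimulated shIKKE array, and TNFRSF10A only through the shIKKE arrays. The filter thus fixed the direction of TNFRSF25 and TNFRSF10A.

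**Figure D2:**
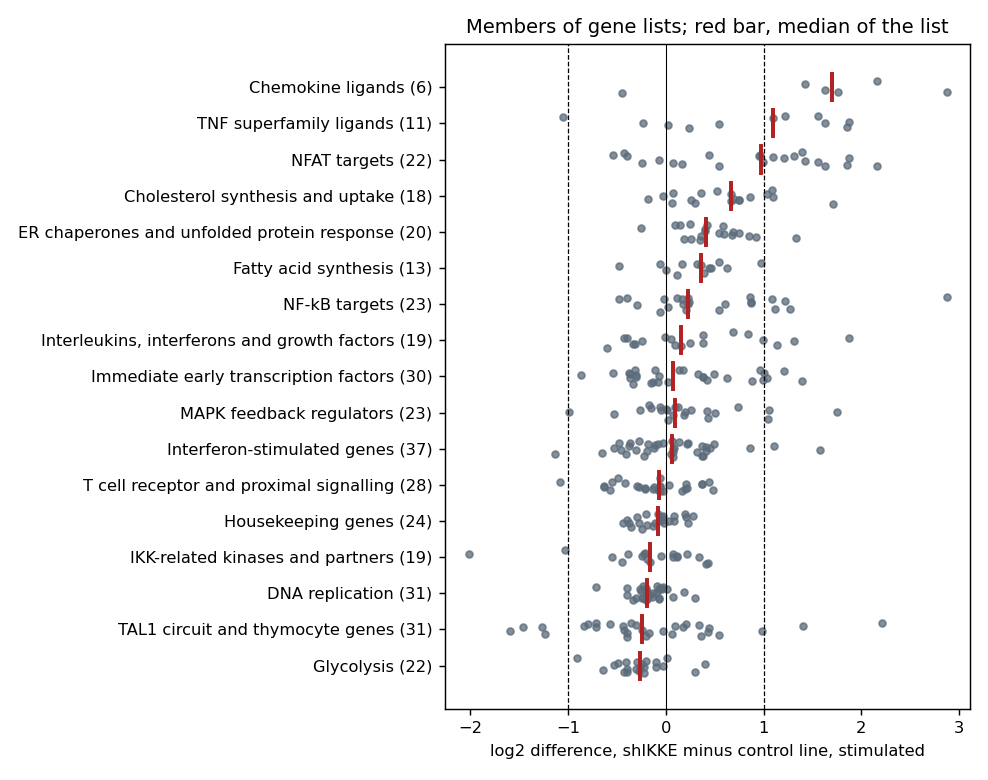
Log2 difference of the stimulated shIKKE line minus the stimulated control line (horizontal axis) for each measured member of 17 gene lists, 1 point per gene, vertical scatter without meaning. The red bar is the list's median and dashed lines mark 2-fold. Of the lists shown, chemokine ligands have the highest median (1.70), and glycolysis the lowest (-0.26), with all of its 22 members within 2-fold.

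Among markers of cortical thymocytes, CD1A, CD1C and CD1E were among the 12 lowest of the brighter genes in the shIKKE line. CD1 proteins present lipids to T cells and mark cortical thymocytes. CD1E gave signals of 6870.0 and 1742 with solvent, and of 4396 and 1451 after stimulation (log2 -1.59, and -1.47 by a dimmer set). CD1A read 3067 and 1247 with solvent and 2616 and 941 when stimulated (log2 -1.46). CD1C read 2921 and 1241, then 2933 and 1026 (log2 -1.50), and CD1B 2971 and 1042, then 2035 and 839 (log2 -1.26). In each of the 4 genes both control line arrays were above both shIKKE arrays. The same order held for PTCRA, the pre-T cell receptor chain (583 and 322, log2 -0.83), and NOTCH3, which drives it (499.9 and 206, log2 -1.23). DNTT, the terminal transferase, read 1919 and 1285 (log2 -0.57). Of 31 measured genes of the TAL1 circuit and thymocyte stages (35 listed), 4 were lower and 2 higher, and the median was -0.24. The other 25 lay within 2-fold, and 12 of the 31 had a value above 0. The dim recombinase gene RAG1 was level (log2 0.10). The 4 lower ones were CD1A, CD1B, CD1E and NOTCH3, all among the brighter genes, where 0.644% of genes were lower. The 2 higher ones were dim: LMO2, a partner of TAL1 that passed the filter only through the stimulated shIKKE array (log2 2.21), and MAF (22.7 and 83.2, log2 1.40). MAF passed it only through the shIKKE arrays, so the filter fixed the direction of LMO2 and MAF. Over all genes 5.99% were higher and 2.37% lower. IKZF2, the Helios gene, read 1252 and 2481 (log2 0.98).

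Most sterol and secretory pathway genes had values above 0, and few passed 2-fold. HMGCS1, which acts just before mevalonate is made, gave signals of 973 and 3098 with solvent, and of 2432 and 7964 after stimulation (log2 1.71, and 1.52 by a second set). DHCR7 read 567 and 1233 (log2 1.10, and 0.54 by a second set), SC5D 1075 and 2300 (log2 1.09) and SQLE, squalene epoxidase, 3159 and 5752 (log2 0.86). Of 18 measured genes of cholesterol synthesis and uptake (24 listed), 4 were at least 2-fold higher, none lower, and 16 had a value above 0, with a median of 0.67, beside 0.52 with solvent. Over all genes 5.99% were higher and 2.37% lower. Of the 17 brighter sterol genes 3 were higher, where 0.559% of brighter genes were. Of 20 chaperone and unfolded protein response genes of the endoplasmic reticulum, 1 was higher and none lower, but 19 had a value above 0, with a median of 0.41 and 0.53 with solvent. XBP1, the transcription factor of that response, read 585 and 1497 (log2 1.33, and 0.84 by a dim set) and the calcium-binding chaperone CALR 4922 and 9309 (log2 0.92). Fatty acid synthesis had a median of 0.36 over 13 genes (17 listed), none past 2-fold, with SCD, the stearoyl desaturase, at 5441 and 10644 (log2 0.97). HSPA5, the BiP chaperone gene, read 20495 and 27031 (log2 0.40).

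**Figure D3:**
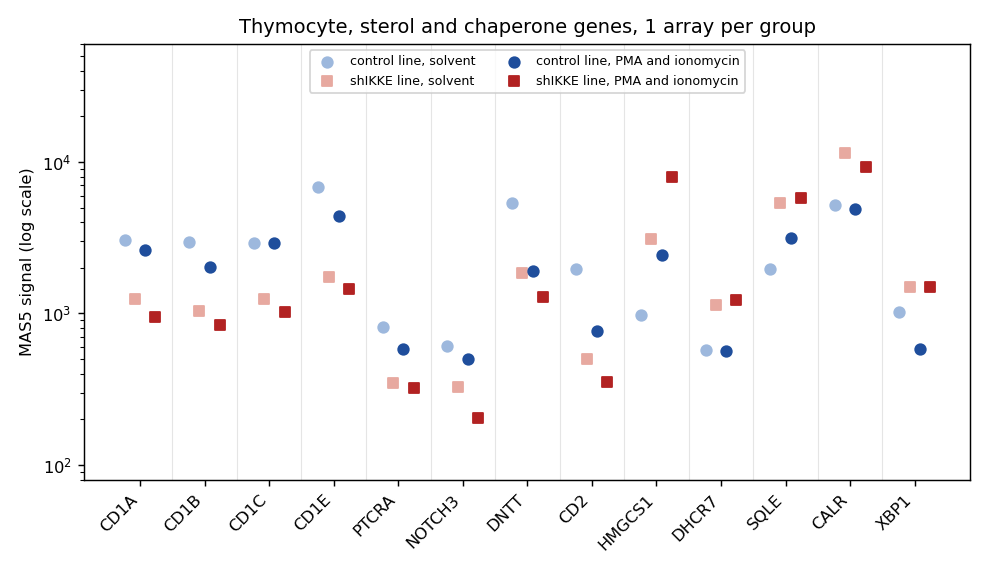
MAS5 signal (log scale) of 8 thymocyte or T cell genes (left) and 5 sterol or chaperone genes (right) on the 4 arrays, 1 point per array. For CD1A, CD1B, CD1C, CD1E, PTCRA and NOTCH3 both control line points (circles) lie above both shIKKE points (squares). For HMGCS1, DHCR7, SQLE, CALR and XBP1 each shIKKE point lies above the control point of the same treatment.

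Housekeeping, growth and interferon lists lay closer to level. Of 24 housekeeping genes (29 listed) none was past 2-fold and the median was -0.08, with ACTB at 37900 and 31442 (log2 -0.27) and GAPDH at 29478 and 24874 (log2 -0.24). DNA replication (31 of 32 listed), mitosis (30 of 30) and glycolysis (22 of 23) had medians of -0.19, -0.17 and -0.26 and no member past 2-fold, and 27, 22 and 19 of their members had values below 0. G1 regulators (19 of 22 listed) had a median of -0.28, with 15 values below 0, 1 member higher and none lower. The higher one was the dim gene CCND2, a cyclin of the D type, at 66.3 and 287 (log2 1.91, and 1.25 by a dim set). With solvent CCND2 differed by 1.97. E2F2 read 1232 and 641 (log2 -0.93). Ribosomal protein genes had a median of -0.20 over 55 genes, which was -0.01 after quantile normalization. Of 37 interferon-stimulated genes (43 listed), 2 were higher, XAF1 (933 and 2823, log2 1.58) and the guanylate-binding gene GBP1 (260.3 and 577, log2 1.11, and 0.35 and 0.13 by 2 other sets), 1 was lower, IFIT3 (248 and 105, log2 -1.13), and the median was 0.06. IFIT1 read 55.7 and 35.9 (log2 -0.48). Over all genes 5.99% were higher and 2.37% lower. None of 10 interferon regulatory factors (12 listed) and none of 26 ribosome biogenesis genes (31 listed) was past 2-fold, the latter having stood at a median of 0.86 with solvent and -0.01 with stimulation. RAG1, the recombinase gene, read 80.5 and 87.1 (log2 0.10).

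In all, 822 genes (5.99%) were higher by the 2-fold rule in the stimulated shIKKE line and 325 (2.37%) lower. Most of these were dim. In the dimmest of the 5 level groups 655 genes were higher and 218 lower, which is 23.9% and 7.94% of that group; the median was 0.36 and the standard deviation across genes 0.95, while in the brightest group 8 were higher and 9 lower and the standard deviation was 0.26. The higher and lower calls also rest on the filter: 372 of the 822 passed it only through the stimulated shIKKE array, and 102 of the 325 only through the stimulated control array. The calls were 71.7% higher on the arrays as deposited, 63.5% after quantile normalization (682 and 392) and 62.6% after cyclic loess (663 and 396). Of the 30 genes with the largest differences, 15 each way, 29 lay outside the brighter genes, among them MYO5B (2.96 and 185, log2 3.55) and SYT8 (3.55 and 139.6, log2 3.12). CXCL8 was the exception. MYO5B passed the filter only through the shIKKE arrays. GSC, a homeobox gene, had the lowest value (315.0 and 19.5, log2 -3.29), followed by SCAMP1-AS1 (256 and 20.1, log2 -2.98) and the complement receptor gene CR2 (391 and 45.4, log2 -2.77).

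**Figure D4:**
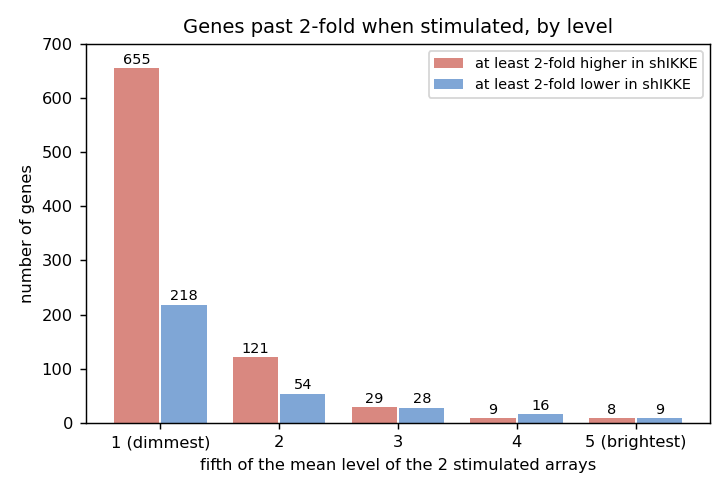
Number of genes at least 2-fold higher (red) or lower (blue) in the stimulated shIKKE line, in 5 equal groups by mean level of the 2 stimulated arrays. Counts fall from 655 and 218 in the dimmest group to 8 and 9 in the brightest.

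Among the 8230 brighter genes, a choice made after the data had been seen, 46 (0.559%) were higher and 53 (0.644%) lower. The 12 highest were, besides CXCL8, CCL4, NT5E, CCL1, SPRY1, HMGCS1, XCL1 and XAF1, the oncogene MYCN (751.5 and 2606, log2 1.78, and -0.07 by a dim set), TWIST1, a basic helix-loop-helix factor (333 and 1159, log2 1.76), the zinc finger gene ZNF521 (227 and 720.0, log2 1.61, and 1.41 by a second set) and FRMD4B (302 and 926, log2 1.57). The 12 lowest held CHRNA3, a nicotinic receptor subunit (1168 and 350, log2 -1.70, with -1.28 and -0.80 by 2 other sets), the long noncoding RNA MIAT (1218 and 389.8, log2 -1.61, with -2.26, -1.99 and -1.24 by 3 others), BICD1, FXYD2, NINJ2, MTURN, DBH-AS1, ADAMTS17, CD1A, CD1C and CD1E. They also held RUNX2, a Runt domain factor (1948 and 730, log2 -1.40, and -0.42 by a dim set). BICD1 was -1.59 by its brightest set but between -0.22 and 1.21 by its 5 others. FXYD2 was -1.46 and MTURN -1.43, but -0.12 and 0.05 by a dim set of each. ADAMTS17 was -1.39, with -0.99 and 0.23 by dimmer sets. DBH-AS1 read 1765 and 644 (log2 -1.44) after 177 and 242 with solvent. MIAT likewise read 147 and 117 with solvent, so both lines had more of these 2 transcripts when stimulated.

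**Figure D5:**
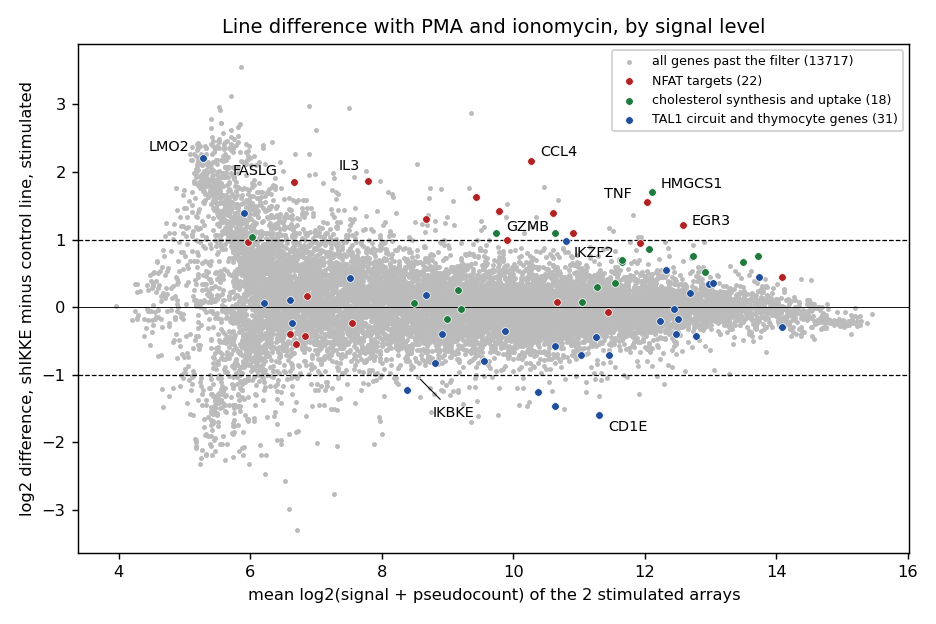
Log2 difference of the stimulated shIKKE line minus the stimulated control line (vertical axis) against the mean log2(signal + 14.1) of these arrays (horizontal axis), 1 point per gene for 13717 genes. Coloured points are 3 gene lists and dashed lines mark 2-fold. The grey cloud is wide at the dim end and narrows to the right, and CCL4 (2.16), TNF (1.56), HMGCS1 (1.71) and CD1E (-1.59) lie outside it.

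Probe sets of a gene share the RNA sample and are no replicates, but they show how far a value depends on the probes. Across 6798 genes with at least 2 probe sets past the filter, the pooled standard deviation between probe sets of a gene was 0.47 on the log2 scale, 0.42 in the brighter genes and 0.67 in the dimmer. Of 140 higher genes with several sets, 110 (78.6%) had all sets above 0 and 41 (29.3%) had all sets past 2-fold. Of 62 lower genes, 38 (61.3%) had all sets below 0 and 14 (22.6%) all past 2-fold. The set that gave the call is itself counted. A set that passed the filter only through 1 stimulated array is highest there, so the filter fixed its direction. Part of this agreement was therefore set in advance. The 41 included CXCL8, EMP1 (106 and 274, log2 1.26 and 2.52), RRAD, a Ras-like GTPase (46.3 and 219, log2 1.95 and 2.52), and FASLG. The brightest sets of RRAD and FASLG passed the filter only through the stimulated shIKKE array. The 14 included MIAT with 4 sets, CD1E, GALNT6, a glycosyltransferase (477 and 120.4, log2 -1.87 and -1.66), and WT1, the Wilms tumour factor (749.6 and 341, log2 -1.10 and -2.00).

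The lines also differed with solvent, on arrays that the stimulated comparison does not use. The filter looks at all 4 arrays, so both comparisons share it. Of the 822 genes higher when stimulated, 103 (12.5%) were higher with solvent too, which is 17.3% of the 596 higher with solvent. Of the 325 lower genes, 84 (25.8%) were lower with solvent, 9.17% of 916. In the opposite direction, 102 of the 822 higher genes (12.4%) were lower with solvent, and 26 of the 325 lower genes (8.0%) were higher with solvent. Of all 13717 genes, 4.34% were higher and 6.68% lower with solvent. In the brighter genes, 9 of 46 were higher in both and 5 of 46 lower with solvent, and 23 of 53 were lower in both and none higher with solvent, while 1.92% of brighter genes were higher and 3.09% lower with solvent. RAP1GAP2, a Rap1 GTPase regulator, read 51.4 and 488 with stimulation (log2 2.94) and differed by 2.85 with solvent. The fractalkine receptor gene CX3CR1 read 93.7 and 424 (log2 2.02, and 1.87 with solvent), and the RNA-binding gene LARP6 40.1 and 248 (log2 2.27 and 1.83). ADCYAP1, a neuropeptide gene, was lower in both (420.5 and 126.5, log2 -1.63 and -1.82), as were CR2, CD1E and CXCR5 (log2 -1.76 and -2.05). LARP6 passed the filter only through the shIKKE arrays and CXCR5 only through the control arrays. The filter thus fixed the direction of LARP6 and CXCR5 in both treatments. Across all 13717 genes, which are no independent replicates, the stimulated and solvent differences had a Pearson correlation of 0.13, and 0.23 over the brighter genes; the lines are the same in both and each treatment has 1 array a line.

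Genes next to each other on the chromosome were set in order by the RefSeq annotation of GRCh38.p14, with 13698 genes placed. There were 11 runs of at least 3 neighbouring measured genes past 2-fold in 1 direction, 10 higher and 1 lower. The lower run was CD1A, CD1B, CD1C and CD1E, the 1 run made of bright genes alone. A run of 3 TNF family genes, TNFSF9, CD70 and TNFSF14 (log2 1.63, 1.87 and 1.10), was higher, and CXCL8 and CXCL3 lay in a run with the dim gene ALB. Another higher run was the apolipoprotein genes APOE, APOC1 and APOC2. Each of the 10 higher runs, the TNF family and CXCL8 runs included, had 2 or more members in the 2 dimmest level groups.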

How the data were processed

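Total RNA of 4 Jurkat samples was labelled with biotin and hybridised to 1 single-colour oligonucleotide array each, per the labels' protocols. The deposited table gives 1 intensity per probe set, the MAS5 signal per the submitters' processing notes; the sources used here do not state its version, scaling target or detection calls. MAS5 subtracts mismatch signal, which spreads dim values widely. Of all features 62 were array controls, 1801 had several symbols and 11721 none; these were not named. Of 41091 with 1 symbol, 41037 matched RefSeq (GRCh38.p14) by gene ID. The array number, 1 per group, limits precision, so differences carry no test. The pseudocount was the 25th percentile of all signals.

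The members and gene lists were chosen with earlier results of these data known. Genes named are the 15 largest differences each way; the 10 leading genes each way whose probe sets all passed 2-fold, or that passed it in both treatments; up to 4 members per list by absolute difference; a fixed set; and the 12 leading brighter genes each way, added after the data were seen. Other list members (such as LTB, CRTAM, REL, IER3, MYC, RCAN1, SQLE, PTCRA and DNTT) are named after their values were seen. The code that computes the differences was checked on made-up values. Alternatives changed the pseudocount, filter, scaling (quantile; limma 3.58.1 cyclic loess in R 4.3.3; median centring) and gene value. Python 3.11.15, pandas 2.3.3 and numpy 2.4.6 were used.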

Additional observations from a re-analysis of the deposited data

Results flagged for a closer look

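In 16 named genes the line difference was at least 2-fold in opposite directions in the stimulated and solvent samples; the difference between the treatments was not tested, because each rests on 1 array a line. Over all genes, 102 of the 822 higher and 26 of the 325 lower when stimulated were past 2-fold the other way with solvent. With solvent, 6.68% of all genes were lower and 4.34% higher. EGR3 was 1.21 (log2) when stimulated and -5.26 with solvent, NR4A3 1.39 and -3.06, and JUN 1.04 and -1.84. ICOS was 1.93 and -1.64, and the lymphotoxin gene LTA 1.22 and -1.22. CHAC1, a stress-induced enzyme gene, was 1.43 and -1.21. The following were dim: CSF1R (2.41 and -1.0), WNT5B (1.24 and -1.31), the histone gene H4C4 (1.07 and -1.30), the zinc transporter gene SLC39A5 (1.96 and -1.20), the homeobox gene BARX2 (2.71 and -1.67), LOC105373418 (2.73 and -1.84), KALRN (2.44 and -1.10) and THSD4 (1.76 and -1.04). The other way round, and dim as well, were the olfactory receptor gene OR2F2 (-1.77 and 1.23) and ZNF771 (-1.55 and 2.16). CSF1R, WNT5B, H4C4, BARX2 and THSD4 passed the filter only through the stimulated shIKKE array, and OR2F2 only through the stimulated control array. For these genes the filter fixed the direction when stimulated.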

How the results depend on the processing

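Counts of genes past 2-fold depended on how dim genes were handled. With stimulation, 822 higher and 325 lower became 259 and 107 with a pseudocount at the median signal, 1560.0 and 704 with no filter, 135 and 95 when both stimulated arrays had to pass the filter, and 46 and 53 in the brighter genes. Past 2-fold in both treatments, 103 higher and 84 lower became 221 and 142 with no pseudocount, 15 and 32 with the larger one, 189 and 128 with no filter, 20 and 37 with both arrays past it, and 9 and 23 in the brighter genes. Scaling, the median of probe sets and leaving out sets with an s or x suffix kept the 4 counts within 1.5 times. IKBKE lay between -1.09 and -0.59 in all 9 alternatives. Of 291 other named genes, 227 values of 2446 moved by more than 0.47, the spread between probe sets, without turning sign, and 8 turned: BICD1 (0.50) and ITPR2 (-0.06) with the median of probe sets, EPHA1 (0.12) and MYCN (-0.07) without s and x sets, and CD74 (-0.25), PTGES (-0.08), THSD4 (-0.17) and WFDC8 (-0.45) with no filter, where another probe set or gene value is used. The medians of the chemokine (1.42 to 1.79), TNF ligand (0.82 to 1.12), NFAT target (0.80 to 1.06), sterol (0.64 to 0.70) and endoplasmic reticulum lists (0.41 to 0.49) kept their direction in all 9, as did that of thymocyte genes (-0.30 to -0.20). No paired analysis was possible because each group has 1 array.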

Other observations

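Genes outside the lists' main themes had some large values. Of 14 heat shock genes (18 listed), SERPINH1, a collagen chaperone gene, and CRYAB were higher (log2 1.86 and 1.85), both dim, with a median of 0.20. Over all genes 5.99% were higher. CRYAB passed the filter only through the stimulated shIKKE array, which fixed its direction. None of the 11 brighter heat shock genes was past 2-fold. Of 12 cytotoxic granule genes (14 listed), GZMA read 137 and 479 in the stimulated control and shIKKE lines (log2 1.71). In calcium signalling, the release channel gene ITPR2 read 802 and 2035 (log2 1.33, but -0.31 to 0.11 by 3 other probe sets), and TRPM2 read 188 and 52.1 (log2 -1.61). IL21R, a cytokine receptor gene, read 1052 and 512 (log2 -1.02, but -0.10 and -0.19 by dimmer sets) after 71.8 and 76.0 with solvent. Of 598 measured long noncoding RNAs, 98 were higher and 28 lower, where 5.99% and 2.37% of all genes were, but of the 95 among the brighter genes none was higher and 3 were lower. Of 34 measured olfactory receptor genes, which T cells are not known to use, 5 were higher and 1 lower, with a median of 0.55 on the deposited scale and 0.36 after quantile normalization. Only 3 of the 34 were among the brighter genes, and in the dimmest level group 23.9% of all genes were higher and 7.94% lower, with a median of 0.36. Of 363 zinc finger ZNF genes, 8 were higher and 6 lower, with a median of -0.04.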
